A study of Mus musculus with 12 samples.

Results

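The genes of the phagocyte NADPH oxidase were described in spinal cord white matter with the genes of an inducible nitric oxide synthase and of the enzymes that remove superoxide and hydrogen peroxide. The set held 9 of the 46078 gene identifiers in the table of counts, each found by its mouse symbol: Cybb, Cyba, Ncf1, Ncf4, Rac2, Nos2, Sod1, Sod2 and Cat. White matter of the ventrolateral spinal cord of C57Bl6 mice was cut out by laser capture microdissection of stained sections, and its RNA was sequenced after amplification. The 4 groups crossed age (young or middle-aged) with condition (naïve or injured), and no transgene or deletion is given for any of them. Young mice were 6 weeks and middle-aged mice 8 months old by the study's methods, while the labels give only the words. Injury was a local injection of lysolecithin, a detergent-like lipid that strips myelin, 72 h before the tissue was taken. Naïve mice had no lesion, and no group with an injection of vehicle was analysed here. Each group had 3 libraries, each from a pool of 5 mice, so the spread between mice within a pool was not measured.

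The phagocyte oxidase is an enzyme of macrophages, microglia and neutrophils that moves electrons from NADPH across a membrane to oxygen and so makes superoxide. Cybb encodes its catalytic subunit gp91phox (NOX2) and Cyba the partner p22phox, and together they form the membrane-bound flavocytochrome. Ncf1 (p47phox) and Ncf4 (p40phox) encode cytosolic subunits that join it on activation, and Rac2 encodes the GTPase that switches it on in blood cells. Nos2 encodes the inducible enzyme that makes nitric oxide, which reacts with superoxide. Sod1, in the cytosol, and Sod2, in mitochondria, turn superoxide into hydrogen peroxide, and Cat, catalase, splits hydrogen peroxide in peroxisomes. In demyelinated tissue these oxidants are studied as a source of damage to myelin and axons.

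Cybb, Cyba and Ncf1 are printed here from 250 bases before to 50 bases after the transcription start, since the 3 genes encode subunits of 1 enzyme and their transcripts rose together after injury. The sequences are RefSeq's for GRCm38.p6, whose table held 6 of the 9 members, and each is read 5′ to 3′ on the gene's own strand, which is the minus strand for all 3. Of 4 motifs searched on both strands, capitals mark the letters GAGGAA, or their reverse complement TTCCTC, a core that the myeloid factor PU.1 binds. The windows lie at chrX:9469275-9469574 for Cybb, chr8:122432891-122433190 for Cyba and chr5:134229576-134229875 for Ncf1.
Cybb: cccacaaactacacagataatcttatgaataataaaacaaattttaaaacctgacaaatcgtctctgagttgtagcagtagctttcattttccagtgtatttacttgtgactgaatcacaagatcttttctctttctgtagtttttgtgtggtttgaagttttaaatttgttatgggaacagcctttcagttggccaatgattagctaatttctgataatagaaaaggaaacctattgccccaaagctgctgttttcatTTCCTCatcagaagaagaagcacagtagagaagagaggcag
Cyba: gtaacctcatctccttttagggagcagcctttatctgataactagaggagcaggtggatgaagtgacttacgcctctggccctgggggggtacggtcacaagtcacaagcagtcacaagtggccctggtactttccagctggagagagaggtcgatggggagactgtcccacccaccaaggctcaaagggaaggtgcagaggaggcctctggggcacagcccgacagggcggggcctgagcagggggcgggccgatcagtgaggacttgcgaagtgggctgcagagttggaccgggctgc
Ncf1: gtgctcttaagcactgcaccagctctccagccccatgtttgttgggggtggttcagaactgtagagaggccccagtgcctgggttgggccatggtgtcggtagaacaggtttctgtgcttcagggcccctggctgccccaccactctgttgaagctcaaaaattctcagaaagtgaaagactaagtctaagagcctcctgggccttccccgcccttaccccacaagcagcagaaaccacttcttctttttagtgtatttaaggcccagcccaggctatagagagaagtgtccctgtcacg
The Cybb window held these letters once, on the opposite strand, starting 10 bases after the start site, and the Cyba and Ncf1 windows did not hold them. On both strands, 28.3% of 32851 mouse promoter windows of the same length held them, so a match in 1 of 3 windows is a description only. Of the 3 other members with a window, Sod2 held GAGGAA at position -203 from the start and Cat at position -235, and Sod1 did not. An NF-kB pattern, GGG and CC with 5 bases of any kind between them, was in all 6 windows and in 50.8% of all windows. The antioxidant response letters TGACNNNGC, found in 12.4% of all windows, were in that of Sod1 alone of the 6, and the FOXO letters GTAAACA, found in 3.65%, were in none of the 6.

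A pool had between 9834447 and 12807437 counts in all, and a detection floor of 3 counts lay between 0.220 and 0.323 CPM, the count relative to the TMM-scaled total of its library. Pools of a group correlated across genes with Pearson's r between 0.937 and 0.988, lowest for the first and second pool of middle-aged naïve mice. These coefficients are across genes, which are not independent replicates. Markers of the cells in the tissue moved with injury, and 8 of the 9 members were also set against the myeloid markers. All 6 oligodendrocyte markers were lower after injury at both ages, their summed level lying between 53010 and 102000 CPM in naïve and between 7930 and 20260 CPM in injured pools. All 7 pan-myeloid markers were higher at both ages, and their sum lay between 79.5 and 176 CPM in naïve and between 1612 and 2223 CPM in injured pools. Markers of monocytes rose from at most 1.54 CPM in naïve pools to between 73.9 and 206 CPM in injured ones, with Ms4a3 at 0 in every pool of 4 groups. Of the 9 markers of neutrophils, Mmp8 made up most of the sum in injured pools, at 11.6 of 14.7 CPM in young and 19.6 of 23.2 CPM in middle-aged mice. The defining Ly6g had at most 4 counts in any pool, and Elane was at 0 in every pool. In pooled tissue, more cells of a type and more RNA per cell cannot be told apart, and the part of these markers in the results below was not tested. The ratio to the myeloid markers, where given, sets a member beside those markers and does not separate cell number from RNA per cell.

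The transcript of the catalytic subunit rose most among the 9 members. Cybb, ENSMUSG00000015340, at chrX:9435252-9487771 on the minus strand of GRCm38, shared no stretch of 31 bases with another gene's transcripts. Its level was 2.004, 2.27 and 0.860 CPM in the young naïve pools and 256, 321 and 292 CPM in the young injured pools. In middle-aged mice it was 6.72, 9.02 and 7.12 CPM in naïve and 498, 449 and 339.6 CPM in injured pools. Each of the 4 groups lay apart from the next, with both naïve groups below both injured groups and the young below the middle-aged group within each condition. Injury raised Cybb by 7.37 on the log2 scale in young mice (SE 0.26, adjusted p = 6.72e-11, edgeR's quasi-likelihood test), a fitted fold of 165. In middle-aged mice it rose by 5.82 (SE 0.23, adjusted p = 1.47e-10, edgeR), a fitted fold of 56.4. Among the 15866 genes tested, 0.561% exceeded its log2 fold change at young and 1.36% at middle age.

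Cyba, the partner that holds gp91phox in the membrane, rose in every injured pool. Cyba, ENSMUSG00000006519, lies at chr8:122424776-122432930 on the minus strand, and 7.30% of the 31-base stretches of its transcripts occur in another gene. It stood at 1.82, 0.907 and 1.29 CPM in young naïve and at 33.0, 43.0 and 34.8 CPM in young injured pools. Its middle-aged levels were 0.960, 2.94 and 3.04 CPM in naïve and 51.3, 56.8 and 32.5 CPM in injured pools. Naïve and injured pools did not overlap, whereas the ages overlapped within each condition. The log2 fold change after injury was 4.77 in young mice (SE 0.37, adjusted p = 8.58e-08, edgeR) and 4.33 in middle-aged mice (SE 0.35, adjusted p = 1.02e-07).

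Of the 5 oxidase genes described here, Ncf1 had the highest level per length in every naïve pool. Ncf1, ENSMUSG00000015950, lies at chr5:134220053-134229625 on the minus strand, where its exons overlap those of Gtf2ird2 on the other strand. The strand setting of the counting is not given in the sources used here. In naïve pools Gtf2ird2 itself had 36 to 84 counts against 94 to 440 for Ncf1. In injured pools it had 57 to 68 counts against 1889 to 2398, so the overlap limits the naïve levels of Ncf1 most. Ncf1 stood at 8.56, 12.5 and 17.7 CPM in young naïve and at 23.7, 46.2 and 12.8 CPM in middle-aged naïve pools. After injury it stood at 175, 169.6 and 176.5 CPM in young and at 162, 191.5 and 163 CPM in middle-aged pools. The injured groups overlapped almost completely and lay above every naïve pool. Its rise on the log2 scale was 3.75 in young mice (SE 0.36, adjusted p = 7.86e-07, edgeR) and 2.65 in middle-aged mice (SE 0.34, adjusted p = 1.14e-05). Without replicate 2 of the middle-aged naïve group, which had the highest naïve level, the middle-aged value was 3.25.

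Ncf4 and Rac2, both on chromosome 15, were near the floor in naïve tissue and rose after injury at both ages. Ncf4, ENSMUSG00000071715, lies at chr15:78244801-78262580 on the plus strand and had 6 to 14 counts in each naïve pool. It stood between 0.544 and 1.47 CPM in the 6 naïve pools, at 14.4, 14.0 and 13.03 CPM in young injured and at 21.0, 20.6 and 17.5 CPM in middle-aged injured pools. Rac2, ENSMUSG00000033220, lies at chr15:78559167-78572783 on the minus strand and had 5 to 15 counts in each naïve pool. It stood between 0.453 and 1.505 CPM in naïve pools, at 18.9, 25.7 and 18.9 CPM in young injured and at 27.9, 27.9 and 21.8 CPM in middle-aged injured pools. For both genes the lowest injured pool was far above the highest naïve pool. Only 2 of the 6 naïve pools of Ncf4 reached the cutoff of the filter on low counts, so it could be tested only through its high injured pools, and its fold change is given as a description. The log2 fold change of Ncf4 measured 4.08 (SE 0.30) at young and 4.34 (SE 0.29) at middle age. Rac2 rose by 4.59 in young mice (SE 0.32, adjusted p = 3.17e-08, edgeR) and by 4.57 in middle-aged mice (SE 0.31, adjusted p = 2.01e-08).

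**Figure D1:**
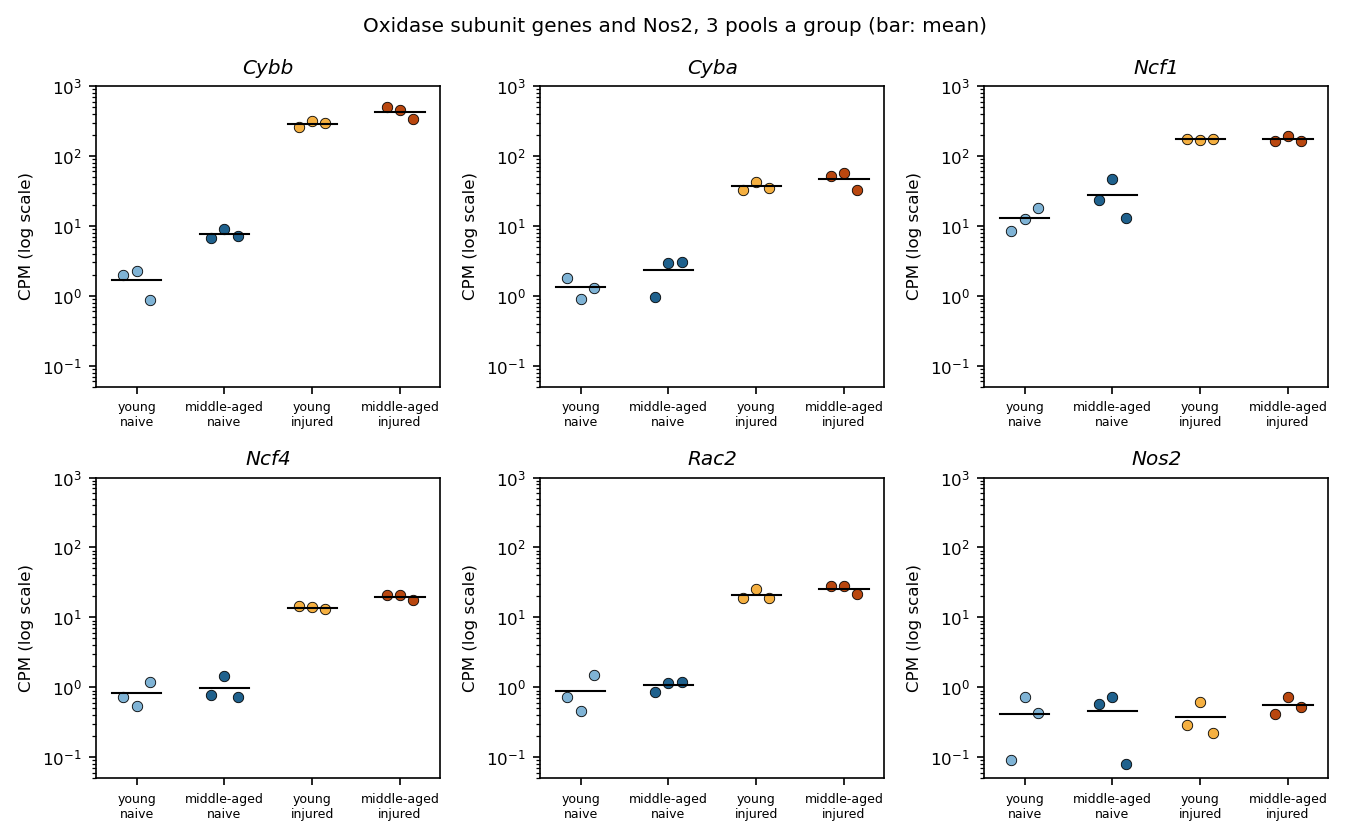
The level of the 5 oxidase subunit genes and of Nos2 in each of the 12 pools, in CPM on a log axis, by group, with the mean as a bar. Cybb runs from 0.860 CPM in a young naïve pool to 498 CPM in a middle-aged injured pool, while Nos2 does not exceed 0.735 CPM in any pool.

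Of the 9 members, 8 passed the filter on low counts and were tested, and of these Ncf4 passed it only through its injured pools. With an adjusted p under 0.05 as the threshold for a call, 6 members were called in young mice, against 54.6% of all genes tested. Of these 5 were higher after injury, against 28.3% of all genes, and 1 was lower, against 26.3%. In middle-aged mice 8 were called, against 58.5%, of which 5 were higher, against 29.2%, and 3 lower, against 29.3%. The 5 higher members were the oxidase genes in both comparisons, Ncf4 included. Since Ncf4 was tested only through its high injured pools, its call is no independent support and adds no weight to these counts. With libraries scaled by their totals alone, the median log2 fold change of all genes after injury in young mice was 0.197 against 0.001 with TMM, and 62.4% of the called genes were higher against 51.8%. The 5 oxidase genes were higher under each scaling.

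Nos2 differed from the oxidase genes in that no rise was detectable at this depth. Nos2, ENSMUSG00000020826, lies at chr11:78920787-78960254 on the plus strand and had 1, 8 and 4 counts in young naïve and 4, 8 and 3 counts in young injured pools. In middle-aged mice it had 6, 7 and 1 counts in naïve and 5, 9 and 6 counts in injured pools. All groups overlapped, and 3 of the 12 pools were at or under the floor of 3 counts. Summed over its pools, Nos2 stood at 0.377 CPM in young injured mice (95% exact Poisson interval 0.211 to 0.622, counting error only) and at 0.415 CPM in young naïve mice (0.221 to 0.710). The sums were 0.553 CPM in middle-aged injured mice (0.338 to 0.854) and 0.432 CPM in middle-aged naïve mice (0.236 to 0.724). Over both ages the injured minus naïve difference of means was 0.0258 CPM (p = 0.855, 2-sided exact permutation test within age). Within each age the exact permutation p was 0.9, where 3 pools against 3 cannot give less than 0.1. Without the filter, edgeR's log2 fold change was -0.13 in young mice (SE 0.87, adjusted p = 0.995) and 0.30 in middle-aged mice (SE 0.85, adjusted p = 0.859).

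The transcripts of catalase and of both superoxide dismutases did not rise. Cat, ENSMUSG00000027187, at chr2:103453849-103485160 on the minus strand, was the most highly counted of the 3 and fell after injury at both ages. Its level was 239, 253 and 263 CPM in young naïve and 147.5, 126.5 and 164 CPM in young injured pools. In middle-aged mice it was 233, 217 and 237 CPM in naïve and 103, 110.1 and 118 CPM in injured pools. No pair of groups overlapped, and the order was the reverse of that of Cybb. Its log2 fold change measured -0.78 in young mice (SE 0.11, adjusted p = 4.18e-05, edgeR) and -1.05 in middle-aged mice (SE 0.11, adjusted p = 2.23e-06). Oligodendrocyte markers, which fell in the same pools, are given above, and their part in the fall of Cat was not tested.

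Sod1 and Sod2 were lower in injured pools of middle-aged mice, with a size that rested largely on 1 library. Sod1, ENSMUSG00000022982, lies at chr16:90220754-90226329 on the plus strand, and 5.42% of its 31-base stretches occur in other genes, among them Gm8566 and Gm8238. It stood at 62.3, 57.6 and 54.8 CPM in young naïve and at 38.8, 44.3 and 39.2 CPM in young injured pools. In middle-aged mice it stood at 52.9, 145.3 and 67.05 CPM in naïve and at 40.8, 44.8 and 44.8 CPM in injured pools. Every naïve pool lay above every injured pool, and replicate 2 of the middle-aged naïve group lay far above all others. The log2 fold change of Sod1 was -1.02 in middle-aged mice (SE 0.27, adjusted p = 0.00457, edgeR), and without that replicate it was -0.46 (adjusted p = 0.00777). In young mice it was -0.51 (SE 0.27, adjusted p = 0.120, edgeR), and without that replicate it was -0.51 with an adjusted p of 0.0019.

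Sod2, ENSMUSG00000006818, lies at chr17:13006846-13040063 on the plus strand, and 26.6% of its 31-base stretches occur in other genes, so its counts are uncertain where reads were shared. It stood at 35.6, 33.1 and 21.1 CPM in young naïve and at 23.9, 20.85 and 21.3 CPM in young injured pools. Levels in middle-aged mice were 28.4, 42.9 and 27.3 CPM in naïve and 23.4, 20.7 and 23.7 CPM in injured pools. The young groups overlapped and the middle-aged groups did not. For Sod2 the log2 fold change read -0.45 in young mice (SE 0.21, adjusted p = 0.0896, edgeR) and -0.54 in middle-aged mice (SE 0.21, adjusted p = 0.0414). The middle-aged value was -0.30 (adjusted p = 0.197) without replicate 2 of the middle-aged naïve group. In young mice Sod2 was -0.64 (adjusted p = 0.0144) without replicate 3 of the young naïve group.

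**Figure D2:**
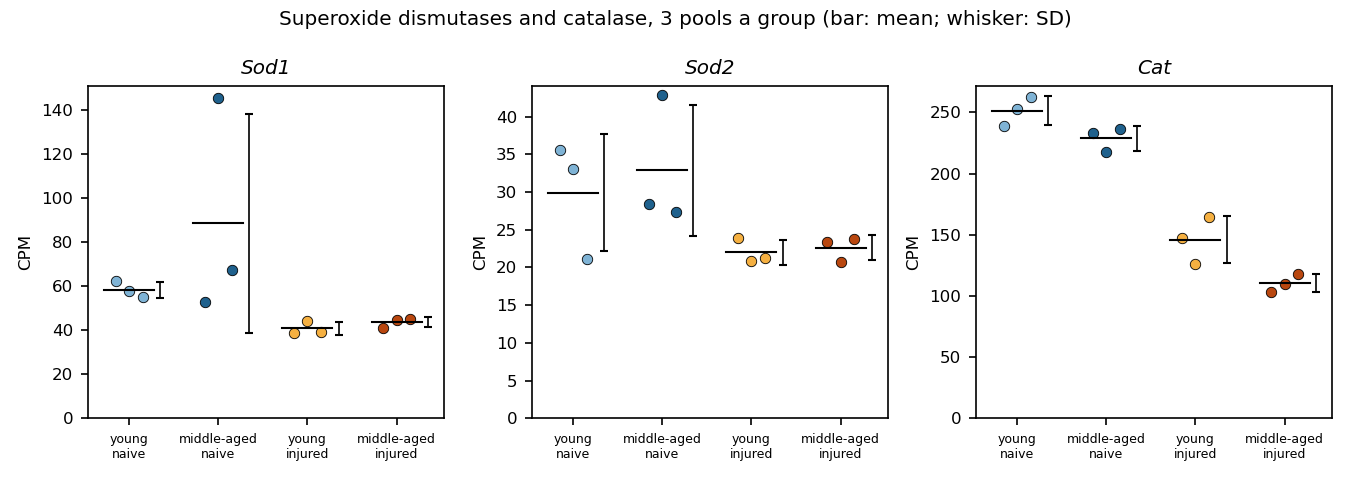
Sod1, Sod2 and Cat in each of the 12 pools, in CPM on linear axes from 0, with the mean as a bar and the SD as a whisker. Cat falls in steps from 251.5 CPM in young naïve to 110.4 CPM in middle-aged injured mice, and a single middle-aged naïve pool at 145.3 CPM sets the wide spread of Sod1.

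Age was compared within each condition, the question being whether white matter of middle-aged mice differed before or after the lesion. In naïve tissue 1 member of the 8 tested was called, Cybb, against 3.80% of all genes. It was higher in middle-aged mice, as were 2.02% of all genes, and 0 members were lower, against 1.78%. Cybb was 7.62 ± 1.23 CPM (SD, n = 3 pools) in middle-aged and 1.71 ± 0.748 CPM in young naïve pools, a log2 difference of 2.11 (SE 0.27, adjusted p = 0.00105, edgeR). Fitted to the 6 naïve pools alone, the difference was 2.15 (adjusted p = 0.0572). Of the 7 pan-myeloid markers, 5 were also higher in middle-aged naïve pools. Ncf1 was 1.09 higher on the log2 scale (SE 0.35, adjusted p = 0.107, edgeR), and 0.49 higher without replicate 2 of the middle-aged naïve group. It had an adjusted p of 0.013 without replicate 3 of that group. Sod1 was 0.60 higher (SE 0.27, adjusted p = 0.246, edgeR) and 0.04 higher without replicate 2, while without replicate 1 its adjusted p was 0.0476.

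In injured tissue 0 of the 8 members passed edgeR's threshold for age, where 1.15% of all genes did (0.240% higher and 0.908% lower in middle-aged mice). Of the 8, 3 had an unadjusted p under 0.05, and DESeq2 called 2, Cybb and Cat. In all, DESeq2 called 446 genes against edgeR's 182. Among injured pools, Cybb averaged 428.8 ± 80.9 CPM (SD, n = 3 pools) at middle age and 289.5 ± 32.3 CPM at young age, a log2 difference of 0.57 (SE 0.18, adjusted p = 0.182, edgeR). Ncf4 stood at 19.7 ± 1.90 CPM against 13.8 ± 0.705 CPM, a log2 difference of 0.51 (SE 0.23, adjusted p = 0.468, edgeR). Cat stood at 110.4 ± 7.34 CPM against 146 ± 19.0 CPM, a log2 difference of -0.40 (SE 0.11, adjusted p = 0.123, edgeR). In the same pools 5 of the 6 oligodendrocyte markers were lower at middle age, their sum averaging 9849 against 19580 CPM, and the monocyte markers summed to between 163 and 206 CPM at middle age against 73.9 to 113 CPM at young age. In naïve pools 3 of the 6 oligodendrocyte markers were lower at middle age. The part of these markers in the age differences was not tested. For Cybb, Ncf4 and Cat the middle-aged and young pools did not overlap, which 3 pools a group can give with an exact permutation p of 0.1 at the least. The share of all genes whose pools lay apart in this way is not given here. Fitted to the 6 injured pools alone, the model gave an adjusted p of 0.0365 for Cybb, 0.0393 for Ncf4 and 0.0494 for Cat. That fit called 818 of 15048 genes for age, against 182 of 15866 in the main fit, so more genes of every kind passed. Ncf1 differed by -0.01 on the log2 scale, and Cyba and Rac2 by 0.34 and 0.29, with overlapping pools.

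The injury effect on Cybb, middle-aged minus young, was -1.55 on the log2 scale (SE 0.33, unadjusted p = 3.43e-04, adjusted p = 0.0921, edgeR), which did not pass the threshold. Its young naïve pools, on which this rests in part, had 8 to 25 counts. The same difference had a median of -0.78 for the pan-myeloid and -0.82 for the homeostatic microglia markers, against -0.046 for all genes. For the monocyte and neutrophil markers it was -0.05 and 0.03. No marker of these lists passed, and their part in the value of Cybb was not tested. Of the 8 members, 0 passed for this difference, where 0.139% of all genes did (0.0567% with a higher and 0.0819% with a lower effect in middle-aged mice). DESeq2 called 240 genes in all against edgeR's 22, and 1 member, Cybb (adjusted p = 0.00129). Of the 8, 2 had an unadjusted p under 0.05 with edgeR, the first being Cybb. The second was Ncf1, with a difference of -1.1 (SE 0.47, adjusted p = 0.449, edgeR), which was -0.51 without replicate 2 of the middle-aged naïve group.

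**Figure D3:**
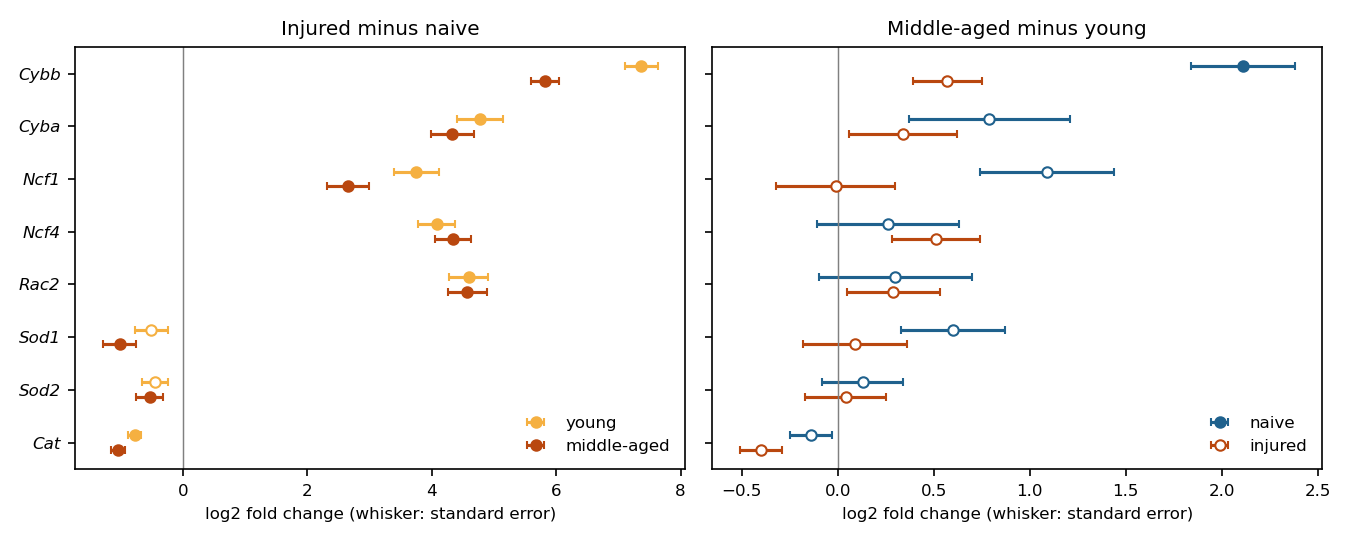
Log2 fold change of the 8 tested members, injured minus naïve at each age in the left panel and middle-aged minus young in each condition in the right panel, with the standard error as a whisker. Filled points passed an adjusted p of 0.05, and at the right the filled point is Cybb in naïve tissue at 2.11. The points of Ncf4 at the left are a description, since it was tested only through its injured pools.

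The oxidase genes were then set against the markers of the cells that carry them. For each pool the count of a member was divided by the summed counts of 7 pan-myeloid markers, and the log2 of this ratio was compared between injured and naïve pools by an exact permutation test within age, whose smallest p over both ages is 0.005. Relative to these markers Cybb was 2.68 higher in injured pools over both ages (p = 0.005, the smallest this exact permutation test can give), 3.29 in young and 2.07 in middle-aged mice. Rac2 was 0.63 higher (p = 0.02, exact permutation test) and Cyba 0.66 higher (p = 0.035). The p of Cyba was between 0.05 and 0.08 when any of 7 pools was left out. Ncf4 was 0.24 higher (p = 0.25, exact permutation test) and Ncf1 was at -0.64 (p = 0.05). Ncf1 reached 0.61 in the other direction (p = 0.025, exact permutation test) when markers of homeostatic microglia and monocytes took the place of the 7, so its direction depended on the markers chosen. Cybb was higher with either set of markers. In naïve tissue the Cybb ratio was 1.46 higher and in injured tissue 0.24 higher in middle-aged mice, both without overlap and both with the smallest exact p, 0.1. For Sod1, Sod2 and Cat the same difference was -4.65, -4.41 and -4.88, which the rise of the markers in the denominator fixes for any gene that did not rise, so no test is given for them. The p-values of the 5 oxidase genes are not adjusted.

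**Figure D4:**
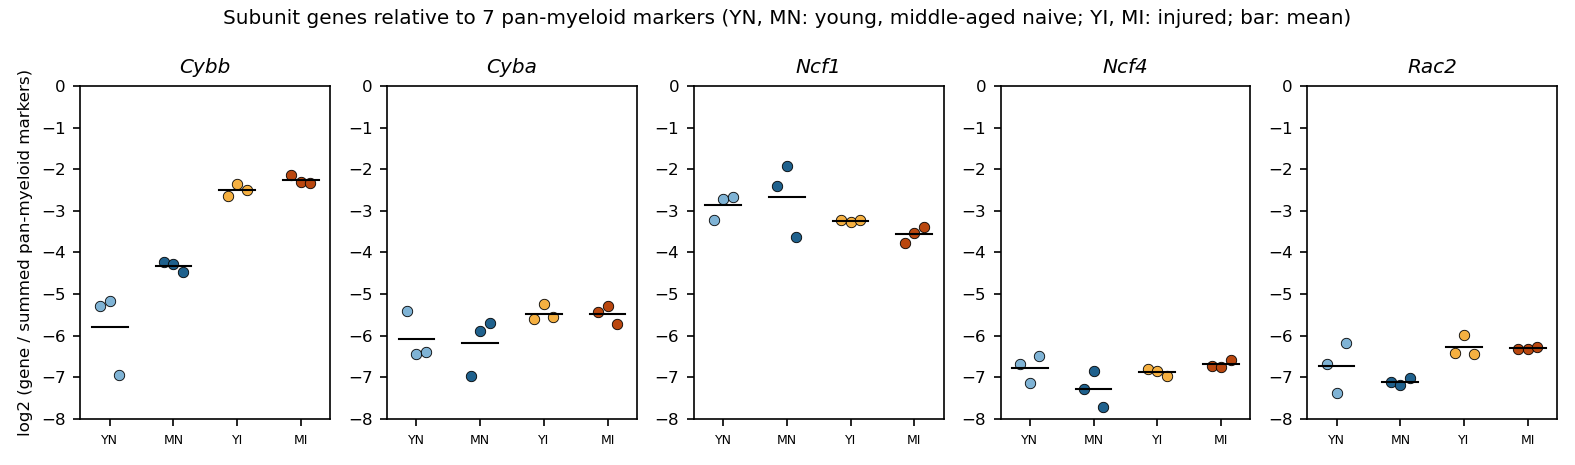
Log2 of each subunit gene's counts over the summed counts of 7 pan-myeloid markers in the 12 pools, with group means as bars. The Cybb points rise from a mean of -5.79 in young naïve to -2.50 in young injured pools, while the Ncf4 points of young mice differ by a mean of 0.11 only.

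Per length the make-up of the oxidase transcripts differed between naïve and injured tissue. The level per kilobase of annotated exon was taken for Cybb, Cyba, Ncf1 and Ncf4, and each was given as a percent of their sum. This description was chosen after the values were seen and carries no test. The exon overlap of Ncf1 with Gtf2ird2, given above, limits how far the share of Ncf1 can be read in naïve pools. Cybb made up 5.75% ± 3.12 (SD, n = 3 pools) of the sum in young naïve and 12.35% ± 3.32 in middle-aged naïve pools. After injury it made up 35.6% ± 1.66 in young and 41.95% ± 2.85 in middle-aged pools, with no overlap between naïve and injured. Ncf1 made up 62.9% ± 12.3 of the sum in naïve pools of young mice and 62.4% ± 16.3 in those of middle-aged mice. Its share after injury was 34.1% ± 2.88 at young age and 27.1% ± 3.92 at middle age. Cyba held between 20.96% and 25.4% and Ncf4 between 4.27% and 7.18% on average in each group. The per-length ratio of Cybb to Ncf1 had a median of 0.114 (young) and 0.179 (middle-aged) in naïve pools and of 1.04 and 1.48 in injured pools.

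**Figure D5:**
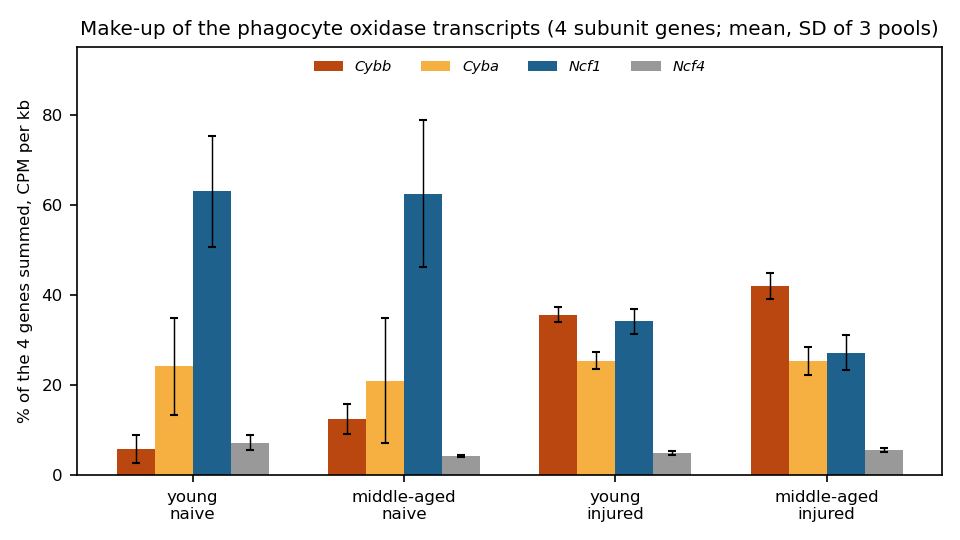
Mean share of each of 4 oxidase subunit genes in their summed level per kilobase, in percent, by group, with the SD of 3 pools as a whisker. Ncf1 takes the largest share in both naïve groups, and in middle-aged injured pools Cybb does, with 41.95%.

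Other genes of the oxidase family were counted over a list of 13. Of the 7 that were tested, 3 rose and 1 fell in young mice and 2 rose and 0 fell in middle-aged mice, where 28.3% of all genes tested rose and 26.3% fell in young mice and 29.2% and 29.3% in middle-aged mice. The list medians were 0.10 and 0.15 on the log2 scale against 0.001 and -0.032 for all genes, and these shares and medians of all genes serve for the lists below too. The 6 not tested were Nox3, Noxa1, Duox1, Duox2, Duoxa1 and Duoxa2, epithelial or inner ear oxidase genes and their partners. Hvcn1, the proton channel that balances the charge moved by the oxidase, rose by 3.73 in young (SE 0.29, adjusted p = 8.83e-08, edgeR) and by 3.23 in middle-aged mice (SE 0.28). Cybc1, a chaperone that gp91phox needs to mature, rose by 0.46 in young (SE 0.13, adjusted p = 0.00927, edgeR) and by 0.71 in middle-aged mice (SE 0.13). Nox4, an oxidase that makes hydrogen peroxide without cytosolic subunits, had 2 to 11 counts in young naïve and 29 to 32 counts in young injured pools. Too few of its naïve pools reached the cutoff of the filter, so it was tested only through its injured pools. Its log2 fold changes of 1.86 in young (SE 0.62) and 1.21 in middle-aged mice are a description. The place of Nox4 among the 3 that rose in young mice is no independent support. Noxo1, the organizer of Nox1, fell by 1.43 in young mice, its log2 fold change being -1.43 (SE 0.55, adjusted p = 0.0395, edgeR), and its value in middle-aged mice was -0.85 (adjusted p = 0.193). The counts of Noxo1 were low, 20 to 28 in young naïve and 5 to 15 in young injured pools. For age, 0 of the 7 passed in naïve (3.80% of all genes) or in injured tissue (1.15%).

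A list of 12 genes of arginine and nitric oxide metabolism without Nos2, both arginases included, gave 6 higher (28.3% of all genes) and 2 lower (26.3%) in young mice. In middle-aged mice it gave 7 higher (29.2% of all genes) and 1 lower (29.3%), and its medians were 0.63 and 0.64. Arg1, which uses the same substrate arginine to make urea and ornithine, had 1 to 15 counts in naïve pools and stood at 199.7 ± 25.7 CPM (SD, n = 3 pools) in young and 301.7 ± 99.1 CPM in middle-aged injured mice. Its log2 fold change was 9.39 in young (SE 0.44) and 8.34 in middle-aged mice (SE 0.39). Too few naïve pools of Arg1 reached the cutoff of the filter on low counts, so it was tested only through its high injured pools. The fold change of Arg1 is a description, and its place among the genes counted as higher is no independent support. Gch1, which makes the cofactor tetrahydrobiopterin, rose by 1.78 in young (SE 0.26, adjusted p = 5.14e-05, edgeR) and by 1.11 in middle-aged mice (SE 0.25). Nos1, the neuronal synthase, fell, with log2 fold changes of -1.69 (SE 0.26, adjusted p = 7.62e-05, edgeR) and -1.23. Arg2, the mitochondrial arginase, rose by 1.23 in young (SE 0.36, adjusted p = 0.00974, edgeR) and by 2.86 in middle-aged mice. For age, 1 gene, Gch1, was higher (2.02% of all genes) and 1, Ddah2, lower (1.78%) in middle-aged naïve pools, and 0 passed in injured pools.

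Of 17 further genes that remove superoxide and peroxides, 9 rose (28.3% of all genes) and 1 fell (26.3%) in young mice, and 7 rose (29.2%) and 1 fell (29.3%) in middle-aged mice. The list medians were 0.78 and 0.43 against 0.001 and -0.032 for all genes. Gpx3, the secreted glutathione peroxidase, rose by 2.77 in young (SE 0.28, adjusted p = 1.27e-06, edgeR) and by 1.1 in middle-aged mice (SE 0.26). Gpx1, the cytosolic form, rose by 2.20 (SE 0.20, adjusted p = 5.14e-07, edgeR) and by 1.68. Sod3, the superoxide dismutase outside cells, had 2 to 13 counts in each naïve pool and 20 to 24 counts in young injured pools. Too few of its naïve pools reached the cutoff of the filter, so it was tested only through its injured pools. Its log2 fold changes of 1.80 in young (SE 0.68) and 0.51 in middle-aged mice are a description. The place of Sod3 among the 9 that rose in young mice is no independent support. Gpx8, a form in the endoplasmic reticulum, rose by 1.74 (SE 0.26, adjusted p = 4.68e-05, edgeR) and by 1.78, and was the only gene of this list called for age in injured tissue, at -1.18 (SE 0.25, adjusted p = 0.0333). In naïve tissue Gpx8 was lower at middle age as well, at -1.22 (SE 0.28, adjusted p = 0.0319, edgeR), and Gpx1 and Gpx3 were higher, by 0.81 and 1.27. Of the list, 2 passed as higher (2.02% of all genes) and 1 as lower (1.78%) with age in naïve tissue. In injured tissue 0 passed as higher (0.240%) and 1 as lower (0.908%). Gpx4, which reduces lipid peroxides in membranes, fell at both ages, with log2 fold changes of -0.86 (SE 0.20, adjusted p = 0.00192, edgeR) and -1.17, and is named after its values were seen.

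Of other enzymes that make oxidants, 10 were listed and 8 tested. In young mice 3 rose (28.3% of all genes) and 3 fell (26.3%), and in middle-aged mice 3 rose (29.2%) and 4 fell (29.3%), while Mpo, the neutrophil peroxidase, and Epx, the eosinophil peroxidase, did not pass the filter. Xdh, the xanthine dehydrogenase whose oxidase form makes superoxide, rose by 3.45 in young (SE 0.23, adjusted p = 1.91e-08, edgeR) and by 2.84 in middle-aged mice (SE 0.21). Its level was also higher at middle age, by 1.61 in naïve (SE 0.24, adjusted p = 0.00211, edgeR) and by 1.0 in injured tissue (SE 0.19, adjusted p = 0.0204). Maob and Maoa, the mitochondrial monoamine oxidases, fell in young mice, with log2 fold changes of -1.77 (SE 0.36, adjusted p = 0.000879, edgeR) and -0.94 (SE 0.14). Pxdn, a matrix peroxidase, rose by 1.12 in young mice (SE 0.18, adjusted p = 0.000108, edgeR), and its value in middle-aged mice was -0.17. In naïve tissue 3 genes of this list, Xdh, Aox1 and Pxdn, were higher in middle-aged mice (2.02% of all genes) and 0 lower (1.78%). In injured tissue 1 was higher (0.240% of all genes) and 0 lower (0.908%).

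Over the 12 pools, which fall into naïve and injured sets, the genes whose log2 CPM followed Cybb most closely were Ggta1, Msr1 and Tnfrsf1b, with Pearson's r of 0.998, 0.997 and 0.996. Of 13084 genes with a mean log2 CPM of at least 1, 946 had an r of 0.95 or more with Cybb, so a close match to Cybb was common. For Cat these were Bace1, Kazn and Nipal4, each with an r of 0.989, and 484 genes reached 0.95. For Sod2 they were Mfsd4a, Ndufa4 and Bex2, with r of 0.969, 0.965 and 0.964, and 6 genes reached 0.95. These coefficients share libraries and depth and are given as descriptions. Nos2 did not pass the filter, and no likeness was taken for it.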

How the data were processed

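RNA of laser-captured white matter from 12 pools of mice was amplified and sequenced. Per the labels and the study's methods, the authors checked reads with FastQC 0.11.4, mapped them to GRCm38 with TopHat2 2.0.10 and Bowtie 1.1.2, and deposited the featureCounts output, 1 raw read count for every gene and pool, with no normalization. The annotation release, strand setting and handling of shared reads are not given in the sources used here. Groups came from the sample labels. Of 46078 identifiers, 45143 had a symbol and an exon length in GENCODE on GRCm38.

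The test was edgeR 4.0.16 in R 4.3.3 (TMM, filterByExpr with a minimum count of 10, glmQLFit and glmQLFTest) with 1 coefficient per group over all 12 pools and no covariate, and p-values were adjusted by Benjamini-Hochberg over 15866 genes, with a threshold of 0.05. Standard errors were taken as the size of a log2 fold change over the root of its F value. A prior count of 2 went into log2 CPM, and ratios to the myeloid markers added 0.5 to a member's count. Shared sequence was searched in stretches of 31 bases of annotated transcripts. Single values were compared by 2-sided exact permutation tests. The steps were tested on simulated data.

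The members were given, and the lists of related genes and markers, like the tests, were chosen with earlier results of these data known. Named from each related list were up to 4 genes with the largest absolute change in young mice among those called, the genes not tested, and for Cybb, Sod2 and Cat the 3 genes with the highest r. A further gene of these lists is not reported here. Genes named for an age difference or said to be named after their values were seen fall outside that rule. Marker lists for astrocytes, endothelial cells, neurons, Schwann cells and lymphocytes were counted too. Of 5 astrocyte markers 4 fell at both ages, of 5 endothelial markers 2 rose in young and 3 in middle-aged mice, and of 4 neuron markers 2 fell in young mice and 3 fell and 1 rose in middle-aged mice. The 1 Schwann marker tested rose in young mice, where its list summed to 31.1 CPM in 1 pool, and 0 of 4 lymphocyte markers passed the filter. Of 6 homeostatic microglia markers, 3 rose and 1 fell in young and 2 rose and 2 fell in middle-aged mice. Of 9 neutrophil markers 3 were tested, of which 2 rose in young and 3 in middle-aged mice, and all 4 monocyte markers tested rose at both ages. These markers were near 0 in naïve pools and passed the filter through injured pools, so their counts are no independent support.

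The alternatives were other scalings, DESeq2 1.42.0, other filters, a replicate block, only the pools compared, each pool left out in turn and other ways to build the myeloid reference. Pools are of different mice, amplified reads are not independent molecules, and intervals and floors cover counting error only.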

Additional observations from a re-analysis of the deposited data

How the results depend on the processing

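The counts of members called for injury stayed between 6 and 8 under every alternative run, with 7533 to 9681 genes called in all. These counts include Ncf4, whose call is no independent support. Of 943 single-member values recomputed, 881 kept their direction and side of the threshold, 18 lost the threshold, 22 passed it and 22 changed sign. Those that changed sign, other than Ncf1 relative to the markers, passed no threshold. With a pool left out, the age difference in naïve tissue ran from -0.11 to 0.59 for Ncf4, from -0.03 to 0.85 for Rac2 and from -0.11 to 0.27 for Sod2, and that of Ncf1 in injured tissue from -0.09 to 0.04. The difference of injury effects ran from -0.08 to 0.63 for Ncf4, from -0.57 to 0.32 for Rac2, from -0.77 to 0.05 for Sod1 and from -0.23 to 0.15 for Sod2. In injured tissue Ncf1 was at 0.00 with age under DESeq2 and its size factors, and Sod2 at -0.02 with library totals alone. The cause of these changes was not tested.

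For age in naïve tissue, where 1 member was called, DESeq2 and a fit with no filter on low counts called 2 (Cybb and Ncf1), and a fit of only the pools compared called 0. Of all genes, the main fit called 603, DESeq2 1085, no filter 1153 and only the pools compared 71. Leaving out a pool gave 1 to 2 members and 261 to 800 genes in all. For age in injured tissue, where 0 were called, DESeq2 called 2, no filter 1 (Cybb) and only the pools compared 3. Of all genes these 3 fits called 446, 437 and 818, against 182 in the main fit, so more genes of every kind passed in them. Leaving out a pool gave 0 members and 45 to 410 genes in all. For the difference of injury effects, with 0 called, DESeq2 called 1 and no filter 2 (Cybb and Ncf1), and leaving out a pool gave 0. Of all genes, the main fit called 22, DESeq2 240 and no filter 329, and leaving out a pool gave 3 to 56.

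Of the oxidase genes' ratios to the myeloid markers, those of Cybb, Cyba and Rac2 had an exact permutation p under 0.05. Cybb and Rac2 kept it in all 14 alternatives, and Cyba lost it when any of 7 pools was left out. Ncf1 passed with the mean of the markers' log2 values. It also passed without replicate 1 of the young naïve or replicate 3 of the middle-aged naïve group. With homeostatic microglia and monocyte markers Ncf1 turned to 0.61, and Ncf4 passed as well. Ncf4 passed the filter on low counts only through its injured pools, so this is no independent support. The ratios of Sod1, Sod2 and Cat follow from the markers' own rise and are not counted. The call of Sod2 in middle-aged mice was lost in 10 of 21 alternatives.

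Replicate numbers did not pair the pools (correlations of deviations between -0.11 and 0.15). A replicate block called 6, 8, 1, 0 and 0 members in the 5 comparisons, as without it. Of all genes it called 8577, 9153, 529, 189 and 31. Genes near the floor, Nos2 above all, are limited by depth.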
